A study of Mus musculus with 16 samples.

Results

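The collagen chain genes described here are the 43 protein-coding genes of the mouse whose symbols name an alpha chain of a collagen (Col, a type number, a and a chain number), leaving out Col20a1. They were taken from the 53379 genes of a whole-liver RNA sequencing table, in which each value is FPKM, fragments scaled to gene length and to the reads mapped in the library. The livers came from C57BL/6J mice at postnatal day 1 (P1), 1 week (W1), 2 weeks (W2) and 4 weeks (W4). Control livers are labelled wild type and are littermates according to the study. Mettl3 cKO livers carried 2 floxed alleles of Mettl3 together with Alb-Cre, a Cre recombinase driven by the albumin promoter, which is active in hepatocytes. Mettl3 is the catalytic subunit of the enzyme that writes N6-methyladenosine on RNA. Each of the 8 groups had 2 libraries, which made 16. Nothing in the labels says whether the 2 livers of a group came from different litters, and p-values measure the spread between these libraries only.

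Collagens are trimers of alpha chains wound into a triple helix. Fibrillar collagens, chiefly types I, III and V in liver, assemble into banded fibrils and are the matrix best known from scar tissue, where hepatic stellate cells and portal fibroblasts that have become myofibroblasts deposit them. Type IV chains form the sheet-like network of basement membranes, which the liver has around its bile ducts and vessels and only sparsely along its sinusoids. Of the rest, type VI makes beaded microfibrils, the FACIT chains decorate fibrils, the multiplexins XV and XVIII lie at basement membranes, and several chains span the cell membrane. The 43 genes were accordingly divided into 11 fibrillar chains, 6 type IV chains and 26 other chains.

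Estimated from the steps between low FPKM values, depth was between 10.8 and 15.5 M reads a library. A single read on a 6-kilobase transcript was worth 0.0108 to 0.0155 FPKM. Mitochondrial transcripts took between 14.8% and 59.0% of the summed FPKM, and the 2 highest shares, 58.1% and 59.0%, were those of the W2 Control libraries against 25.2% and 43.8% in W2 Mettl3 cKO. The expression of Xist and Eif2s3y marked the W1 Control pair as male and the W1 Mettl3 cKO pair as female. At P1, 3 of the 4 livers were female, the exception being a Control, and every W2 and W4 liver was male. At W1, sex and genotype cannot be told apart. Mettl3 itself was at 7.79 and 8.12 FPKM in Control against 11.3 and 9.06 FPKM in Mettl3 cKO at P1 and 5.46 and 5.53 against 8.86 and 7.24 at W1, followed by 4.94 and 6.41 against 7.21 and 6.72 at W2 and 7.83 and 6.40 against 9.20 and 9.25 at W4. At each of the 4 ages both libraries labelled Mettl3 cKO were above both Control libraries, so the whole-gene level of the targeted gene went against the label. By genomic PCR, the authors found the floxed exons deleted in Mettl3 cKO livers. Their RT-qPCR, western blots and immunohistochemistry also showed Mettl3 depleted in such livers, and N6-methyladenosine on mRNA was lower. Those assays and whole-gene FPKM are different measures. The exons that Cre removes were not measured apart from the others here, and the reason for the higher whole-gene level was not tested. Each direction below is that of the libraries so labelled. The hepatocyte markers named below, Alb among them, were present in all 16 libraries.

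Tests were made with limma on log2(FPKM + 1), over the 14913 genes that reached 1 FPKM in 2 or more libraries. A gene was called when its Benjamini-Hochberg adjusted p was under 0.05. All fold changes are on that scale, which understates the change of low genes. Of the 43 chains, 21 passed the filter, comprising 8 fibrillar chains, 3 type IV chains and 10 other chains. The 22 others are given at the end. Where the 2 groups of an age are said below not to overlap, the share of all genes doing so was not counted. The library kit does not mark strand, so reads from exons shared with another gene cannot be assigned. Such overlap took up to 6.07% of the exon bases of a tested chain (Col9a3, with Tcfl5), 2.50% of Col5a1 and 1.44% of Col3a1.

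In the genome, several of these genes lie in pairs. Col4a1 and Col4a2 are transcribed in opposite directions from annotated starts 21 bases apart on chromosome 8 (Col4a1, chr8:11198423-11312826, - strand, and Col4a2, chr8:11312805-11449287, + strand, in mm10). Col4a3 and Col4a4 have the same arrangement with a gap of 71 bases, and Col4a5 and Col4a6 with a gap of 1308 bases. Col3a1 (chr1:45311538-45349706, + strand) and Col5a2 point towards each other on chromosome 1, with 24614 bases between their ends. RefSeq promoter windows in GRCm38.p6 (mm10), from 250 bases before to 50 bases after the annotated start, were found for 34 of the 43 genes. They are printed for 6 genes that the results turn on: the Col4a1 and Col4a2 pair, which rose together, Col3a1 and Col1a2, which fell in Control between W2 and W4, and Col5a3 and Col27a1, which were lower in Mettl3 cKO at W4. Capitals mark 3 core promoter motifs on either strand, the TATA box TATAAA (reverse TTTATA), the CCAAT box (reverse ATTGG) and the GC box GGGCGG (reverse CCGCCC), and no marked motifs overlap.
Col4a1: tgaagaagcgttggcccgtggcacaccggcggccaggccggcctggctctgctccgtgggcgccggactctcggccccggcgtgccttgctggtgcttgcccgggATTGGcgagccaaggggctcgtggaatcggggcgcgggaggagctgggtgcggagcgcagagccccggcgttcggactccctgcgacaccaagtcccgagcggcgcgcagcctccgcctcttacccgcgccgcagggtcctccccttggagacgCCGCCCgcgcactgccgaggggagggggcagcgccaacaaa
Col4a2: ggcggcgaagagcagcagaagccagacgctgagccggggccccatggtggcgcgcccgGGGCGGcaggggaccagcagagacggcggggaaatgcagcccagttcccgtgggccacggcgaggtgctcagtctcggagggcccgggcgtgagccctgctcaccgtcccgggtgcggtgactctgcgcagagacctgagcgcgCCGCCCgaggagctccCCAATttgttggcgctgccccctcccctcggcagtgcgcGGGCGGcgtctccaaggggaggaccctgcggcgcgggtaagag
Col3a1: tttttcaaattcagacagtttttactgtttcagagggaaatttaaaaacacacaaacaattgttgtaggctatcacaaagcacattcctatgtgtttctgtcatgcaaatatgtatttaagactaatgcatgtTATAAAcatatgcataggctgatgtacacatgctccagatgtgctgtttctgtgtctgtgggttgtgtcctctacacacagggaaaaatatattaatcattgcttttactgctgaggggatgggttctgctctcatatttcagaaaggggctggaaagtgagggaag
Col1a2: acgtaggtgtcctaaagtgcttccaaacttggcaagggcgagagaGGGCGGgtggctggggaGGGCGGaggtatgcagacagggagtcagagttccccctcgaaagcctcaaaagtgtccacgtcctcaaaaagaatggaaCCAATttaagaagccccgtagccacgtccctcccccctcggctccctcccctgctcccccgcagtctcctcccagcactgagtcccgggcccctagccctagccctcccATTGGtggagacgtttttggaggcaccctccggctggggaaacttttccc
Col5a3: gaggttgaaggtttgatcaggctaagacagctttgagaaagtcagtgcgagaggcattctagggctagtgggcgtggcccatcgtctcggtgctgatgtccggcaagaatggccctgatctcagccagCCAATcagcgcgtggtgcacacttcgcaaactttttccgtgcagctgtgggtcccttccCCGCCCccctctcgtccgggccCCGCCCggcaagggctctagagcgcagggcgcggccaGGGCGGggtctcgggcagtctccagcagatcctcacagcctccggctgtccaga
Col27a1: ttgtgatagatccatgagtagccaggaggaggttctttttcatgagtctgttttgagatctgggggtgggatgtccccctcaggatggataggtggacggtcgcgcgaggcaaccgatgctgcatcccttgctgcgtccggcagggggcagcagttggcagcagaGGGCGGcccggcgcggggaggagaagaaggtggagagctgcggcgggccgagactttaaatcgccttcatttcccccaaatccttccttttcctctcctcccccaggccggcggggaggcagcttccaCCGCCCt
The windows are chr8:11312777-11313076 on the minus strand for Col4a1, chr8:11312555-11312854 on the plus strand for Col4a2, chr1:45311288-45311587 on the plus strand for Col3a1, chr6:4505368-4505667 on the plus strand for Col1a2, chr9:20815018-20815317 on the minus strand for Col5a3 and chr4:63215162-63215461 on the plus strand for Col27a1. The Col4a1 and Col4a2 windows share 78 bases, and 1 GC box of 6 bases is the same site read from both strands. Col3a1 is the only one of the 6 with a TATAAA and the only one with no GC box in its window. Among all 32851 promoter windows of the table, 13.6% held the TATA box letters, 37.4% the CCAAT letters and 35.7% the GC box letters. Of the 37 windows of collagen chain genes, 5, 13 and 23 did. A match is a string of letters and not a shown binding site.

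No chain was called between the genotypes at P1 or W1. limma called 0 of the 21 chains at P1, where 0.0738% of all genes were called higher and 0.0939% lower in Mettl3 cKO, and 0 of 21 at W1, against 3.24% and 1.59%. At an unadjusted p under 0.05 there was 1 chain higher and 1 lower at P1, and 3 higher and 0 lower at W1. On approximate reads recovered from the FPKM steps, limma-voom called 1 chain at P1 and 0 at W1. At W2, 7 of the 21 chains were called higher in Mettl3 cKO and 0 lower (1 lower at unadjusted p under 0.05, and 0 by limma-voom), where 24.6% of all genes were called higher and 4.49% lower. At W4, 16 chains were called higher and 2 lower, where the shares of all genes were 46.9% and 12.4%. The median log2 fold change over all genes tested was itself 0.22 at W2 and 0.44 at W4, and that of the 21 chains was 0.22 and 1.86. In whole liver, more cells of a type and more RNA per cell cannot be told apart.

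**Figure D1:**
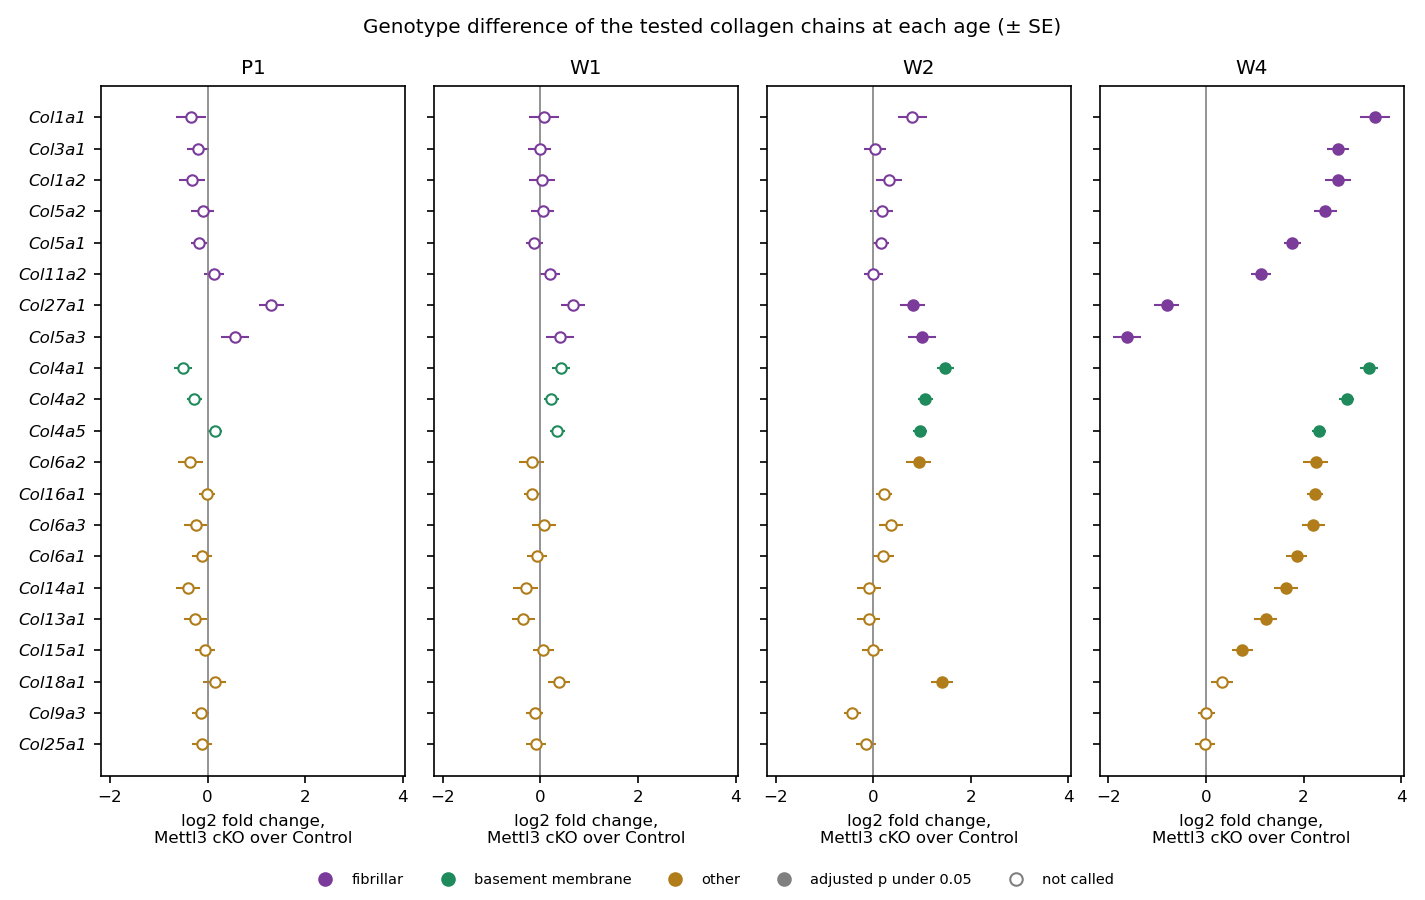
Log2 fold change of each tested collagen chain between Mettl3 cKO and Control (x axis, with SE bars) at P1, W1, W2 and W4, with genes ordered by class and by their value at W4. Filled points were called at an adjusted p under 0.05: none at P1 and W1, 7 at W2 and 18 at W4, with Col5a3 and Col27a1 the 2 on the left at W4.

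The classes are described by counts alone. All 3 type IV chains tested were already called higher at W2 (median log2 fold change 1.07), against 2 of 8 fibrillar chains (median 0.25) and 2 of 10 other chains (median 0.10). Among all genes 24.6% were called higher there, so the fibrillar and other chains were near that share. At W4 all 3 type IV chains were higher (median 2.88). Of 8 fibrillar chains 6 were higher and 2 lower (median 2.11), and 7 of 10 other chains were higher and 0 lower (median 1.43; 3 were not called). Among all genes 46.9% were called higher at W4 and 12.4% lower. Summed over the 6 genes, type IV expression was 28.9 and 36.4 FPKM in Control against 24.4 and 24.1 FPKM in Mettl3 cKO at P1 and 30.5 and 30.6 against 41.2 and 37.1 at W1, followed by 21.6 and 17.4 against 49.3 and 48.7 at W2 and 12.9 and 11.1 against 132 and 113 at W4. The 2 groups did not overlap at any age: Mettl3 cKO was below Control at P1 and above it from W1 on. In FPKM as given, the group mean was lower at each later age in Control and higher at each later age in Mettl3 cKO. No class sum was rescaled, and the mitochondrial shares were 58.1% and 59.0% in W2 Control against 25.2% and 43.8% in W2 Mettl3 cKO. Whether the course over age holds after rescaling was not tested. The 11 fibrillar genes summed to 104 and 111 FPKM in Control against 130.4 and 107 FPKM in Mettl3 cKO at P1 and 165 and 189 against 205 and 200.1 at W1, followed by 190.3 and 141 against 229 and 193 at W2 and 58.5 and 80.6 against 257 and 174 at W4. In FPKM as given, their groups overlapped at P1, were separate with little distance between them at W1 and W2, and at W4 stood far apart. The separation of this sum at W2 was not tested with rescaled libraries and may depend on the mitochondrial shares just given. That sum includes Col27a1, at 33.8 and 40.7 FPKM in Control against 59.7 and 59.4 FPKM in Mettl3 cKO at W1. At W2 Col27a1 was at 28.4 and 20.4 against 44.3 and 42.0. The groups of Col1a2 and Col3a1 overlapped at W1 and W2, and those of Col1a1 at W1 alone. A fibrillar sum without Col27a1 was not taken. The third sum, over 25 other chains without Col18a1, was 36.0 and 42.9 FPKM in Control against 33.6 and 30.1 FPKM in Mettl3 cKO at P1 and 48.7 and 56.5 against 46.4 and 44.5 at W1, followed by 42.3 and 33.7 against 48.7 and 41.0 at W2 and 14.4 and 14.3 against 78.0 and 52.5 at W4, and the W4 Control libraries were again the lowest of the 16. With Col18a1, the sum over all 26 other chains was 143 and 179.9 FPKM in Control against 162 and 169 FPKM in Mettl3 cKO at P1 and 233 and 242 against 344 and 240.4 at W1, followed by 183 and 129.6 against 369 and 339.7 at W2 and 174 and 178 against 297 and 240.2 at W4. On that sum, which Col18a1 dominates, the W4 Control libraries were not the lowest, and the groups did not overlap at W2 and W4. Taken over all 43 genes, collagen transcripts made up 0.0542% and 0.0650% of the summed FPKM of nuclear genes in the W4 Control libraries and 0.170% and 0.124% in W4 Mettl3 cKO.

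**Figure D2:**
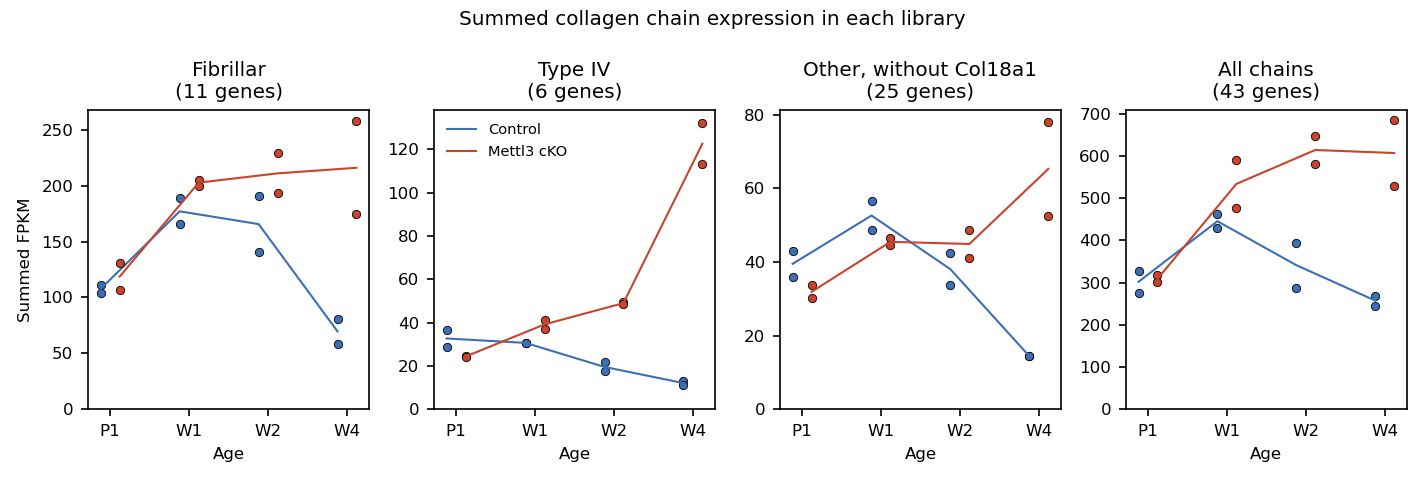
Summed FPKM (y axis, from 0) of the fibrillar, type IV and other chains (without Col18a1) and of all 43 chains, by age (x axis). Each point is 1 library and lines join group means. At W4 the type IV sum was 12.9 and 11.1 FPKM in Control against 132 and 113 in Mettl3 cKO.

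Type I and type III chains, the bulk of the fibrils, were called between genotypes at W4, and in the fit of all 16 libraries at no earlier age. Col1a1, the alpha 1 chain of type I collagen, was at 15.3 and 17.5 FPKM in Control against 12.8 and 12.7 FPKM in Mettl3 cKO at P1 and 21.8 and 22.7 against 22.2 and 25.0 at W1, followed by 20.7 and 9.995 against 31.3 and 21.5 at W2 and 1.30 and 2.66 against 36.0 and 26.8 at W4. Col1a2, its partner chain, was at 20.2 and 20.0 FPKM in Control against 17.2 and 14.8 FPKM in Mettl3 cKO at P1 and 22.2 and 26.6 against 25.9 and 23.9 at W1, followed by 28.2 and 14.8 against 29.2 and 23.2 at W2 and 3.90 and 4.52 against 41.6 and 26.0 at W4. Col3a1, the only chain of type III collagen, was at 37.6 and 36.3 FPKM in Control against 31.3 and 33.2 FPKM in Mettl3 cKO at P1 and 60.6 and 74.9 against 64.4 and 69.0 at W1, followed by 93.1 and 79.3 against 95.3 and 81.6 at W2 and 13.4 and 18.4 against 141 and 83.5 at W4. For each of the 3 genes the 2 W4 Control libraries were the lowest of all 16, and both Mettl3 cKO libraries lay below both Control libraries at P1 and above them at W4. Col1a1 was 11.1-fold higher in Mettl3 cKO at W4 (log2 fold change 3.47 ± 0.30 (SE), adjusted p = 1.8e-06). Col1a2 was 6.52-fold higher (log2 fold change 2.71 ± 0.27 (SE), adjusted p = 5e-06). Col3a1 was 6.54-fold higher (log2 fold change 2.71 ± 0.23 (SE), adjusted p = 1.5e-06). At W2, Col1a1 was not called (log2 fold change 0.80 ± 0.30 (SE), adjusted p = 0.064), although the groups did not overlap. It was called there without the replicate 1 W2 Control (1.29, adjusted p = 0.012) or without the replicate 2 W2 Mettl3 cKO (1.07, adjusted p = 0.044).

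Type V collagen nucleates the fibrils that types I and III build. Col5a1 was at 10.2 and 10.7 FPKM in Control against 10.4 and 8.001 FPKM in Mettl3 cKO at P1 and 10.6 and 10.2 against 10.3 and 8.64 at W1, followed by 8.16 and 6.05 against 8.77 and 7.26 at W2 and 1.75 and 1.89 against 9.19 and 8.11 at W4. Col5a2 was at 4.56 and 4.80 FPKM in Control against 4.77 and 3.84 FPKM in Mettl3 cKO at P1 and 5.67 and 5.17 against 6.25 and 5.09 at W1, followed by 4.03 and 2.70 against 4.34 and 3.44 at W2 and 0.615 and 0.875 against 11.5 and 6.25 at W4. Both were lowest in the 2 W4 Control libraries. At W4 Col5a1 was higher in Mettl3 cKO by 1.77 ± 0.17 (SE) on the log2 scale (adjusted p = 3.8e-06). Col5a2 was higher by 2.45 ± 0.24 (adjusted p = 4.1e-06). Col11a2, a type XI chain better known from cartilage, was low, at 0.735 and 0.988 FPKM in Control against 1.35 and 0.748 FPKM in Mettl3 cKO at P1 and 1.08 and 0.918 against 1.21 and 1.36 at W1, followed by 1.05 and 0.646 against 0.628 and 1.09 at W2 and 0.661 and 1.22 against 3.10 and 3.30 at W4. Both W4 Mettl3 cKO libraries exceeded the other 14 (log2 fold change 1.13 ± 0.20 (SE), adjusted p = 0.00047).

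Col5a3 and Col27a1 went the other way. Col5a3, the third type V chain, was at 2.85 and 3.30 FPKM in Control against 6.01 and 4.16 FPKM in Mettl3 cKO at P1 and 8.65 and 6.497 against 14.5 and 7.08 at W1, followed by 5.76 and 6.29 against 14.2 and 11.9 at W2 and 21.3 and 28.5 against 6.14 and 8.86 at W4. It was higher in Mettl3 cKO at W2 (log2 fold change 0.99 ± 0.29 (SE), adjusted p = 0.021) and lower at W4 (log2 fold change -1.61 ± 0.29 (SE), adjusted p = 0.00041), the 2 W4 Control libraries being the highest of the 16. Col27a1, a fibrillar chain also best known from cartilage, was at 11.8 and 17.1 FPKM in Control against 46.0 and 29.0 FPKM in Mettl3 cKO at P1 and 33.8 and 40.7 against 59.7 and 59.4 at W1, followed by 28.4 and 20.4 against 44.3 and 42.0 at W2 and 15.5 and 22.4 against 9.30 and 11.4 at W4. Its Mettl3 cKO libraries were above both Control libraries at P1, W1 and W2, and below every other library at W4. The difference passed the test at W2 (log2 fold change 0.81 ± 0.26 (SE), adjusted p = 0.031) and, reversed, at W4 (log2 fold change -0.80 ± 0.26 (SE), adjusted p = 0.017). At P1 it did not, although the value was larger (log2 fold change 1.30 ± 0.26 (SE), adjusted p = 0.074). The W4 call of Col27a1 was lost without the replicate 2 Control (-0.55, adjusted p = 0.15) or the replicate 1 Mettl3 cKO (-0.67, adjusted p = 0.11). The W2 calls of Col5a3 and Col27a1 were lost when libraries were scaled by median of ratios (0.67, adjusted p = 0.081, and 0.45, adjusted p = 0.20), a scaling that takes out the shift of the median gene. They were also lost without single W2 libraries. For Col5a3 these were either Control (adjusted p = 0.097 and 0.063) or the replicate 1 Mettl3 cKO (adjusted p = 0.13). For Col27a1 they were the replicate 2 Control (adjusted p = 0.20) or either Mettl3 cKO (adjusted p = 0.14 and 0.068).

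**Figure D3:**
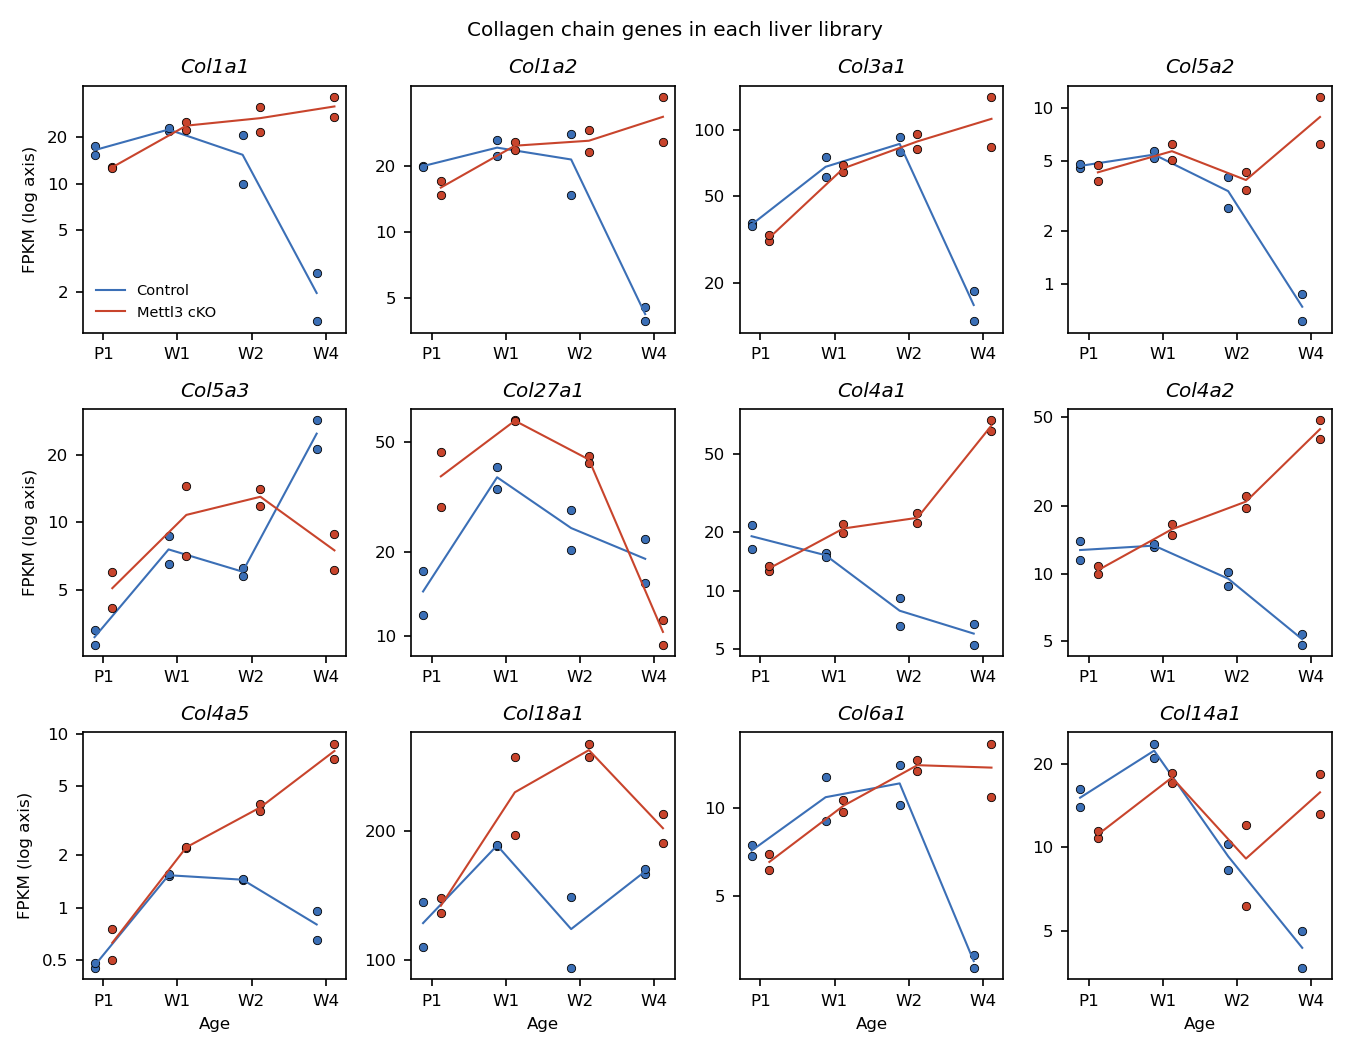
FPKM (y axis, logarithmic) of 12 collagen chain genes by age (x axis). Each point is 1 library, Control in blue and Mettl3 cKO in red, and lines join group means. The 2 W4 Control points lie below all others for Col1a1, Col1a2 and Col3a1 and above all others for Col5a3.

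All 3 tested type IV chains were called at both W2 and W4. Col4a1 was at 16.4 and 21.6 FPKM in Control against 12.6 and 13.4 FPKM in Mettl3 cKO at P1 and 15.5 and 14.8 against 21.9 and 19.7 at W1, followed by 9.19 and 6.60 against 24.9 and 22.3 at W2 and 6.76 and 5.29 against 74.4 and 65.8 at W4. Col4a2, which joins 2 Col4a1 chains in the common type IV trimer, was at 11.5 and 13.9 FPKM in Control against 10.8 and 9.92 FPKM in Mettl3 cKO at P1 and 13.1 and 13.5 against 16.7 and 14.8 at W1, followed by 10.2 and 8.77 against 19.6 and 22.2 at W2 and 5.36 and 4.82 against 48.2 and 39.9 at W4. Col4a5, the X-linked chain of the trimers found in specialised membranes such as that of the glomerulus, was at 0.450 and 0.477 FPKM in Control against 0.757 and 0.497 FPKM in Mettl3 cKO at P1 and 1.51 and 1.56 against 2.21 and 2.24 at W1, followed by 1.44 and 1.46 against 3.95 and 3.62 at W2 and 0.647 and 0.953 against 8.80 and 7.17 at W4. In all 3 genes both Mettl3 cKO libraries were above both Control libraries at W1, W2 and W4, and both W4 Mettl3 cKO libraries exceeded the other 14. At W1 none of the 3 was called, and sex and genotype cannot be told apart there. At W2 the log2 fold change was 1.48 ± 0.18 (SE) for Col4a1 (adjusted p = 0.00018). It was 1.07 ± 0.15 for Col4a2 (adjusted p = 0.00041) and 0.96 ± 0.15 for Col4a5 (adjusted p = 0.00062). At W4 it was 3.34 ± 0.18 for Col4a1 (adjusted p = 6.2e-08). For Col4a2 it was 2.88 ± 0.15 (adjusted p = 5.4e-08) and for Col4a5 2.32 ± 0.15 (adjusted p = 2.2e-07). These are 10.2-fold, 7.37-fold and 4.99-fold, in that order. At P1 the Col4a1 values were lower in both Mettl3 cKO libraries, and the difference was not called (log2 fold change -0.50 ± 0.18 (SE), adjusted p = 0.37).

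Among the multiplexins, Col18a1, the precursor of endostatin, had the highest mean of all 43 chains. It was at 107 and 137 FPKM in Control against 129 and 139 FPKM in Mettl3 cKO at P1 and 185 and 186 against 298 and 196 at W1, followed by 140.4 and 95.9 against 320.5 and 299 at W2 and 159 and 163 against 219 and 188 at W4. Unlike the type IV chains it was called at W2 (log2 fold change 1.41 ± 0.23 (SE), adjusted p = 0.00089) and not at W4 (log2 fold change 0.33 ± 0.23 (SE), adjusted p = 0.24). Scaling by median of ratios turned the W4 value to -0.30. Col15a1, the other multiplexin, was at 0.248 and 0.276 FPKM in Control against 0.189 and 0.246 FPKM in Mettl3 cKO at P1 and 0.868 and 0.590 against 1.04 and 0.580 at W1, followed by 0.999 and 0.558 against 0.833 and 0.670 at W2 and 1.74 and 1.55 against 4.47 and 2.59 at W4. It was higher in Mettl3 cKO at W4 (log2 fold change 0.74 ± 0.21 (SE), adjusted p = 0.0093), but not after median-of-ratios scaling (0.30, adjusted p = 0.25), without the replicate 1 Mettl3 cKO (0.44, adjusted p = 0.13) or without the replicate 2 Control (0.69, adjusted p = 0.054).

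Type VI collagen forms microfibrils around cells from 3 common chains. Col6a1 was at 6.84 and 7.43 FPKM in Control against 6.95 and 6.10 FPKM in Mettl3 cKO at P1 and 8.98 and 12.8 against 10.7 and 9.65 at W1, followed by 13.99 and 10.3 against 13.4 and 14.6 at W2 and 2.83 and 3.14 against 16.6 and 10.9 at W4. Col6a2 was at 4.36 and 5.81 FPKM in Control against 3.90 and 3.54 FPKM in Mettl3 cKO at P1 and 5.47 and 7.46 against 6.12 and 4.98 at W1, followed by 4.72 and 2.64 against 8.75 and 6.80 at W2 and 0.986 and 0.874 against 10.54 and 6.33 at W4. Col6a3 was at 1.80 and 2.28 FPKM in Control against 1.72 and 1.39 FPKM in Mettl3 cKO at P1 and 2.60 and 2.95 against 3.04 and 2.90 at W1, followed by 4.03 and 2.65 against 5.04 and 4.08 at W2 and 0.890 and 1.17 against 11.5 and 5.98 at W4. In each the W4 Control libraries were the lowest of the 16. At W4 the log2 fold change was 1.86 ± 0.21 (SE) for Col6a1 (adjusted p = 1.4e-05). It was 2.25 ± 0.26 for Col6a2 (adjusted p = 1.4e-05) and 2.20 ± 0.24 for Col6a3 (adjusted p = 1.1e-05). Col6a2 was also called at W2 (log2 fold change 0.93 ± 0.26 (SE), adjusted p = 0.017), a call lost with median-of-ratios scaling (0.64, adjusted p = 0.071), without the replicate 2 Control (adjusted p = 0.15) or without the replicate 1 Mettl3 cKO (adjusted p = 0.13).

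The fibril-associated Col14a1 was at 13.9 and 16.2 FPKM in Control against 10.8 and 11.4 FPKM in Mettl3 cKO at P1 and 20.9 and 23.6 against 17.1 and 18.6 at W1, followed by 8.30 and 10.3 against 12.1 and 6.15 at W2 and 5.02 and 3.69 against 18.3 and 13.2 at W4. Col16a1, of the same family, was at 2.11 and 2.12 FPKM in Control against 2.21 and 1.95 FPKM in Mettl3 cKO at P1 and 3.26 and 3.65 against 2.74 and 3.19 at W1, followed by 3.25 and 2.32 against 3.52 and 3.23 at W2 and 0.532 and 0.467 against 7.06 and 5.12 at W4. Both were lowest in the 2 W4 Control libraries. At W4 Col14a1 was higher by 1.64 ± 0.25 (SE) on the log2 scale (adjusted p = 0.00014). Col16a1 was higher by 2.23 ± 0.17 (adjusted p = 6.4e-07). The membrane-spanning Col13a1 was at 2.53 and 3.68 FPKM in Control against 2.58 and 2.23 FPKM in Mettl3 cKO at P1 and 2.97 and 1.67 against 1.43 and 1.69 at W1, followed by 3.43 and 2.39 against 2.15 and 3.18 at W2 and 1.46 and 2.29 against 5.58 and 5.73 at W4, with both W4 Mettl3 cKO libraries above the other 14 (log2 fold change 1.23 ± 0.23 (SE), adjusted p = 0.00071). The FACIT chain Col9a3 and the membrane-spanning Col25a1 were called at no age in the comparison of genotypes, and ranged from 0.202 to 1.19 FPKM and from 0 to 1.24 FPKM over the 16 libraries. Scaling by median of ratios called Col9a3 lower in Mettl3 cKO at W2 (-0.64, adjusted p = 0.015), as did scaling to the total of nuclear genes (-0.66), which in both cases made the split at W2 4 chains higher and 1 lower. The 4 were Col4a1, Col4a2, Col4a5 and Col18a1.

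Whether the W4 difference lay in the Control or in the Mettl3 cKO livers was read from the change between W2 and W4 within each genotype. In Control, 13 of the 21 chains fell and 2 rose between these ages, where 12.7% of all genes fell and 30.0% rose. In Mettl3 cKO, 10 rose and 3 fell, where 42.5% of all genes rose and 9.17% fell, and with median-of-ratios scaling 5 rose and 3 fell. The fibrillar chains of types I and III fell in Control and were not called in Mettl3 cKO, and the difference between these changes is tested below. Col1a1 fell by 2.41 ± 0.30 (SE) on the log2 scale in Control (adjusted p = 0.00012) while the value in Mettl3 cKO was 0.25 ± 0.30 (adjusted p = 0.52). Col1a2 fell by 2.05 ± 0.27 in Control (adjusted p = 0.00017) while the value in Mettl3 cKO was 0.32 ± 0.27 (adjusted p = 0.34). Col3a1 fell by 2.38 ± 0.23 in Control (adjusted p = 2.7e-05) while the value in Mettl3 cKO was 0.29 ± 0.23 (adjusted p = 0.31). With median-of-ratios scaling these 3 values in Mettl3 cKO were -0.26, -0.19 and -0.23. Without the replicate 2 W4 Mettl3 cKO, Col3a1 was called higher there (0.67, adjusted p = 0.032).

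The type IV chains rose in Mettl3 cKO over the same interval. Col4a1 rose by 1.53 ± 0.18 (SE) on the log2 scale in Mettl3 cKO (adjusted p = 4.9e-05) while the value in Control was -0.33 ± 0.18 (adjusted p = 0.16). That value was called lower with median-of-ratios scaling (-0.59, adjusted p = 0.015), with scaling to the total of nuclear genes (-0.89, adjusted p = 0.0016) and with limma-voom (-0.50, adjusted p = 0.049). Col4a2 rose by 1.03 ± 0.15 in Mettl3 cKO (adjusted p = 0.00019) and fell by 0.78 ± 0.15 in Control (adjusted p = 0.0017). Col4a5 rose by 0.91 ± 0.15 in Mettl3 cKO (adjusted p = 0.00036) and fell by 0.45 ± 0.15 in Control (adjusted p = 0.028). The fall of Col4a5 was lost without either W2 Control (adjusted p = 0.092 and 0.093), without the replicate 1 W4 Control (-0.33, adjusted p = 0.21) and without the filter on low values (adjusted p = 0.052). The rise of the 3 chains in Mettl3 cKO held with either rescaling of the libraries and without either W4 Mettl3 cKO library. Of the chains tested, 8 had both W4 Mettl3 cKO libraries above the other 14, namely Col4a1, Col4a2, Col4a5, Col6a3, Col11a2, Col13a1, Col15a1 and Col16a1, a pattern that 25.6% of all genes showed. Both W4 Control libraries lay below the other 14 for 11 chains, among them Col1a1, Col1a2 and Col3a1, against 15.2% of all genes. Col5a3 rose in Control (log2 fold change 1.87 ± 0.29 (SE), adjusted p = 0.00039) and Col27a1 fell in Mettl3 cKO (log2 fold change -1.97 ± 0.26 (SE), adjusted p = 8.4e-05). Without the replicate 1 W4 Mettl3 cKO library 6 chains rose and 1 fell in Mettl3 cKO.

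**Figure D4:**
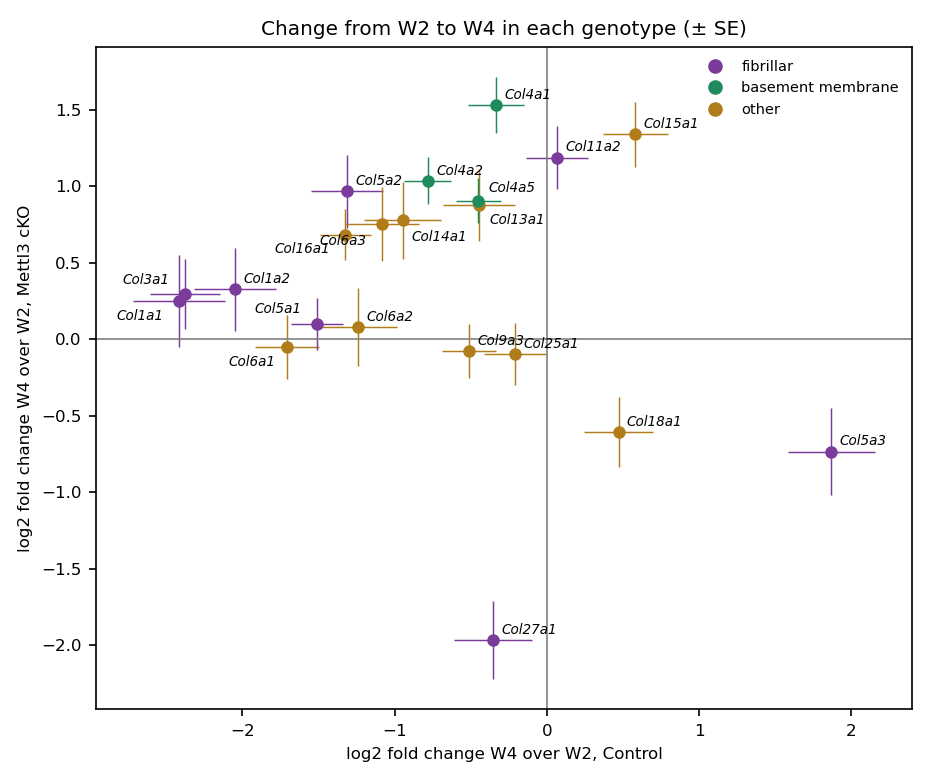
Log2 fold change from W2 to W4 of the 21 tested chains in Control (x axis) and in Mettl3 cKO (y axis), with SE bars, coloured by class. Col1a1, Col1a2 and Col3a1 lie at the far left, between -2.41 and -2.05 in Control and between 0.25 and 0.32 in Mettl3 cKO, while the type IV chains lie between 0.91 and 1.53 in Mettl3 cKO.

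Fewer chains were called at the earlier steps in Control. From P1 to W1 limma called 5 chains higher (Col3a1, Col4a5, Col5a3, Col16a1 and Col27a1) and 0 lower (1 at unadjusted p under 0.05), where 5.52% of all genes rose and 24.4% fell. From W1 to W2 it called 0 chains higher (0 at unadjusted p under 0.05) and 5 lower (Col4a1, Col4a2, Col5a1, Col14a1 and Col18a1), where 2.09% rose and 33.6% fell. Neither step was tested with rescaled libraries. Mitochondrial shares were 29.4% and 22.0% in W1 Control against 58.1% and 59.0% in W2 Control. The median-of-ratios factors were 1.01 and 0.993 against 0.680 and 0.708, and dividing by them raises W2 values relative to W1. The 5 falls may therefore depend on the scaling. Over the whole interval from P1 to W4, 13 chains were lower and 2 higher in Control, where 42.1% of all genes were lower and 12.4% higher. In Mettl3 cKO 15 chains were higher and 3 lower, against 31.7% and 25.4%. There the P1 livers were female and the W4 livers male, so sex and age cannot be told apart. With median-of-ratios scaling the Control counts became 13 lower and 5 higher.

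The genotype difference depended on age for 18 of the 21 chains (limma's joint F test over the 4 ages), as it did for 49.6% of all genes, the exceptions being Col9a3, Col15a1 and Col25a1. The genotype difference at W4 exceeded that at W2 for 15 chains and was below it for 3, Col5a3, Col18a1 and Col27a1, where the shares of all genes were 22.4% and 11.6%. Averaged over the 4 ages, 15 chains were higher and 0 lower in Mettl3 cKO (0 lower at unadjusted p under 0.05, and 1 lower, Col9a3, with median-of-ratios scaling), where 40.6% of all genes were higher and 9.81% lower. A term for sex lowered this count from 15 to 8 chains, and that of W4 minus P1 in Mettl3 cKO from 18 to 11. Only P1 Control held both sexes, so the term rests on the difference between its 2 libraries and does not measure an effect of sex.

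Chains that share a trimer or a fibril were then compared within libraries, as the ratio of their FPKM, which no scaling of the libraries can change. Col4a1 and Col1a1, which share neither, were compared in the same way. The 6 ratios were tested over all ages by an exact two-sided permutation of the genotype labels within each age, with Benjamini-Hochberg adjustment over the 6. The smallest p possible was 0.0015. The ratio of Col5a1 to Col5a2 was 2.24 and 2.23 in Control against 2.17 and 2.08 in Mettl3 cKO at P1 and 1.86 and 1.96 against 1.64 and 1.70 at W1, followed by 2.03 and 2.24 against 2.02 and 2.11 at W2 and 2.84 and 2.16 against 0.802 and 1.30 at W4. It was lower in Mettl3 cKO at 4 of 4 ages, with overlapping groups at W2 alone, with a mean within-age difference of -0.40 on the log2 scale (exact permutation p = 0.0062, adjusted p = 0.037). At W4 it differed by -1.28, and Col5a2 and not Col5a1 was the more abundant chain in 1 of the 2 Mettl3 cKO libraries. This call was lost without any one of 4 libraries (adjusted p from 0.056 to 0.093): the replicate 1 P1 Control, replicate 2 W2 Control, replicate 1 W2 Mettl3 cKO and replicate 1 W4 Control.

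The ratio of Col1a1 to Col1a2, whose chains join 2 to 1 in type I collagen, was 0.758 and 0.878 in Control against 0.744 and 0.857 in Mettl3 cKO at P1 and 0.981 and 0.857 against 0.857 and 1.05 at W1, followed by 0.732 and 0.673 against 1.07 and 0.924 at W2 and 0.333 and 0.587 against 0.866 and 1.03 at W4. At W2 and W4 the groups did not overlap, Control being lower, and the mean difference over ages was 0.40 (exact permutation p = 0.028, adjusted p = 0.083; in this direction at 3 of 4 ages). It passed without the replicate 2 P1 Control (exact permutation test, adjusted p = 0.040) or the replicate 1 P1 Mettl3 cKO (adjusted p = 0.049). The ratio of Col3a1 to Col1a1 was 2.46 and 2.07 in Control against 2.44 and 2.62 in Mettl3 cKO at P1 and 2.78 and 3.29 against 2.90 and 2.76 at W1, followed by 4.50 and 7.93 against 3.04 and 3.80 at W2 and 10.3 and 6.94 against 3.91 and 3.12 at W4. Control libraries were above Mettl3 cKO libraries at W2 and W4, and the mean difference was -0.51 (exact permutation p = 0.046, adjusted p = 0.090; 3 of 4 ages). It passed without the replicate 2 P1 Control (exact permutation test, adjusted p = 0.040). The ratio of Col4a1 to Col4a2 differed by 0.22 (exact permutation test, adjusted p = 0.090; 3 of 4 ages), and passed without the replicate 1 P1 Mettl3 cKO (adjusted p = 0.049). That of Col6a1 to Col6a2 differed by -0.36 (adjusted p = 0.11; 2 of 4 ages) and that of Col4a1 to Col1a1 by 0.11 (adjusted p = 0.65; 2 of 4 ages), each by the exact permutation test. In the last, Control went from 0.445 and 0.660 at W2 to 5.22 and 1.99 at W4 and Mettl3 cKO from 0.797 and 1.04 to 2.07 and 2.46, so the type IV chain gained on the type I chain in both genotypes.

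**Figure D5:**
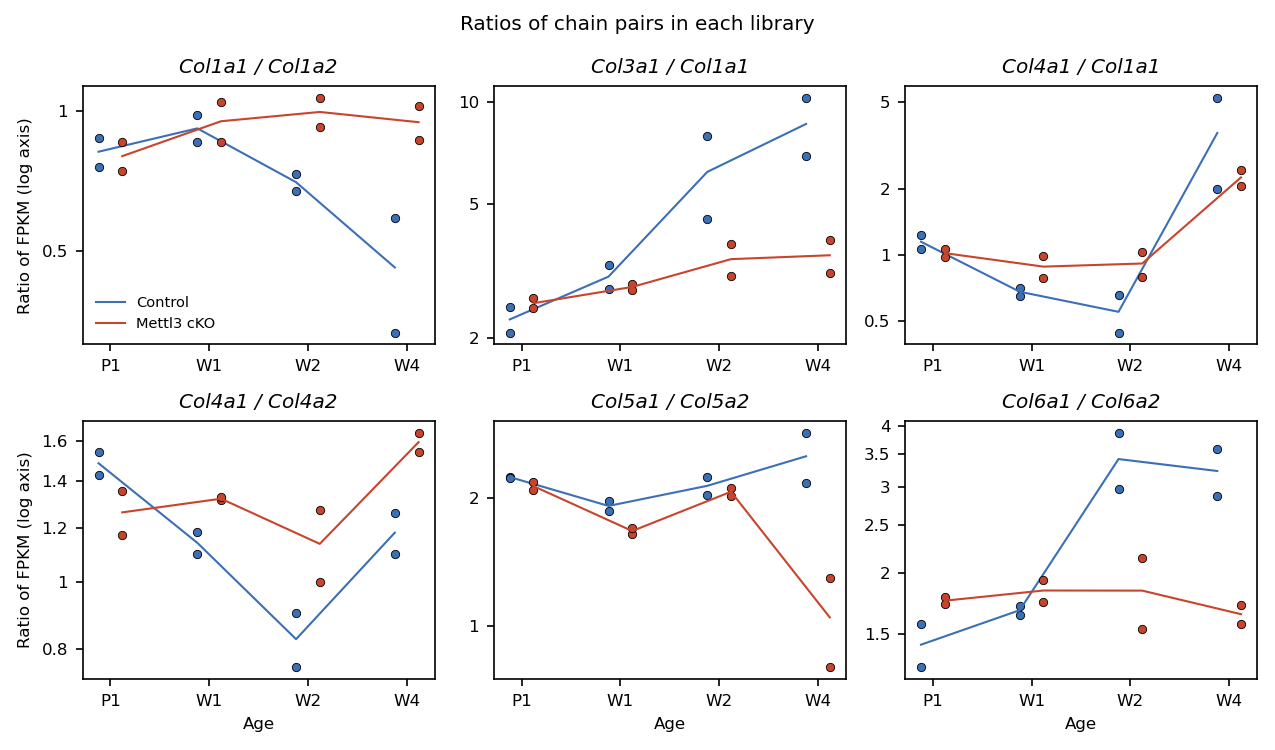
Ratio of the FPKM of 2 collagen chains (y axis, logarithmic) by age (x axis) for the 6 pairs tested. Each point is 1 library, Control in blue and Mettl3 cKO in red, and lines join group means. Col3a1 to Col1a1 reached 10.3 and 6.94 in W4 Control against 3.91 and 3.12 in W4 Mettl3 cKO.

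The machinery that folds, modifies and trims collagen moved in the same direction as the chains at W4. Of its 22 genes tested, 17 were higher and 1 lower in Mettl3 cKO at W4 (median log2 fold change 1.22), where 46.9% of all genes were higher and 12.4% lower. At W2 7 of the 22 were higher and 0 lower (median 0.35), near the 24.6% of all genes called higher there. Serpinh1, the collagen-specific chaperone HSP47, was at 8.25 and 5.92 FPKM in Control against 52.3 and 38.2 FPKM in Mettl3 cKO at W4 (log2 fold change 2.51 ± 0.21 (SE), adjusted p = 1.3e-06). Pcolce, which enhances the cleavage of the procollagen C-propeptide, was at 2.96 and 3.56 FPKM in Control against 35.0 and 37.6 FPKM in Mettl3 cKO at W4 (log2 fold change 3.13 ± 0.17 (SE), adjusted p = 5.3e-08). Crtap and P3h4, which belong to prolyl 3-hydroxylase and lysyl hydroxylase complexes in the endoplasmic reticulum, were higher by 2.41 and 2.33 on the log2 scale (adjusted p = 4.8e-07 and 6.5e-07). The gene that was lower, named after its value was seen, was Bmp1, the procollagen C-proteinase itself, at 30.5 and 32.0 FPKM in Control against 18.7 and 19.9 FPKM in Mettl3 cKO at W4 (log2 fold change -0.67 ± 0.19 (SE), adjusted p = 0.01), a call that was lost without the replicate 2 Control (adjusted p = 0.051) or the replicate 1 Mettl3 cKO (adjusted p = 0.057).

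Of 8 collagen receptor genes tested, Lair1 passed the filter through the W4 Mettl3 cKO libraries alone and is left out of the count. Of the other 7, 6 were higher and 1 lower at W4 (median log2 fold change 1.07; all genes 46.9% and 12.4%), and 2 were higher at W2 (all genes 24.6%). Ddr1, a receptor tyrosine kinase that binds both fibrillar and type IV collagen, was at 0.496 and 0.406 FPKM in Control against 35.6 and 28.3 FPKM in Mettl3 cKO at W4 (log2 fold change 4.50 ± 0.19 (SE), adjusted p = 1.7e-08). Mrc2, an endocytic receptor for collagen, was higher by 1.80 (adjusted p = 6e-06). Ddr2, the fibrillar collagen receptor of mesenchymal cells, was higher by 1.07 (adjusted p = 5.2e-05) and Itgb1, the shared beta chain of the collagen-binding integrins, by 1.62 (adjusted p = 8.5e-05). The gene that was lower, again named after its value was seen, was Itga10 (log2 fold change -0.54 ± 0.16 (SE), adjusted p = 0.0099), a call lost without the replicate 2 Control (adjusted p = 0.097) or the replicate 2 Mettl3 cKO (adjusted p = 0.054).

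The other components of basement membranes were higher with the type IV chains at W4: 11 of 11 genes counted were called higher (median log2 fold change 1.83; all genes 46.9%), and 4 of 11 at W2 (median 0.12; all genes 24.6%). Lama5 and Lamb2 encode laminin chains, Hspg2 encodes perlecan, and Nid1 encodes nidogen, which links the laminin and type IV networks. At W4 Lama5 was at 0.763 and 0.980 FPKM in Control against 10.9 and 10.1 FPKM in Mettl3 cKO (log2 fold change 2.62 ± 0.15 (SE), adjusted p = 1.1e-07). The others were higher by 2.63 for Lamb2 (adjusted p = 2.3e-07), 2.09 for Hspg2 (adjusted p = 4e-07) and 3.13 for Nid1 (adjusted p = 6e-07). Of the TGF-beta pathway, which drives collagen transcription in fibroblasts, 17 of 17 genes tested were called higher at W4 (median 1.79; all genes 46.9%) and 1 of 17 at W2 (median 0.15; all genes 24.6%). Thbs1, which can activate latent TGF-beta, was at 0.105 and 0.220 FPKM in Control against 42.9 and 16.5 FPKM in Mettl3 cKO at W4 (log2 fold change 4.58 ± 0.36 (SE), adjusted p = 8.9e-07), and the target gene Ctgf at 3.46 and 3.39 FPKM in Control against 80.9 and 41.5 FPKM in Mettl3 cKO (log2 fold change 3.74 ± 0.32 (SE), adjusted p = 1.6e-06). The receptor Tgfbr2 was higher by 2.51 (adjusted p = 9.7e-07) and the ligand Tgfb1 by 1.88 (adjusted p = 6.1e-06).

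Markers of several cell types moved with the chains at W4, when 46.9% of all genes were called higher and 12.4% lower. Sox9 and Trem2, which passed the filter through the W4 Mettl3 cKO libraries alone, are left out of the counts of their lists but not of the sums, which cover each whole list. Those of stellate cells and myofibroblasts were called higher for 14 of 14 genes, with a summed level of 49.0 to 51.5 FPKM in W4 Control and 303 to 410 in W4 Mettl3 cKO, and none was at 0 in any library. Acta2, smooth muscle actin, was at 1.86 and 5.18 FPKM in Control against 26.7 and 17.8 FPKM in Mettl3 cKO (log2 fold change 2.44 ± 0.47 (SE), adjusted p = 0.00071) and Pdgfrb at 1.38 and 1.06 FPKM in Control against 7.38 and 7.81 FPKM in Mettl3 cKO (log2 fold change 1.96 ± 0.19 (SE), adjusted p = 4.8e-06). Portal fibroblast markers were higher for 7 of 9 genes, with sums of 7.98 to 9.29 against 50.1 to 75.9 FPKM, and Gli1 alone was at 0 in 1 library. Endothelial markers were higher for 9 of 10 genes (72.9 to 75.3 against 196 to 202 FPKM, none at 0) and macrophage markers for 7 of 7 (64.0 to 81.5 against 259 to 269 FPKM, none at 0). Cholangiocyte markers were higher for 5 of 6 genes counted, with sums of 23.4 to 27.8 against 188 to 289 FPKM, and Cftr, not tested, was at 0 in 4 libraries. Krt19, a keratin of bile duct cells, was at 0.732 and 2.23 FPKM in Control against 28.8 and 17.2 FPKM in Mettl3 cKO (log2 fold change 3.30 ± 0.35 (SE), adjusted p = 8.2e-06). Of 10 hepatocyte markers 0 were higher and 4 lower, with sums of 59597 to 68696 against 30541 to 31376 FPKM and none at 0. Alb, whose promoter drives the Cre, was at 41402 and 34256 FPKM in Control against 14347 and 15710.0 FPKM in Mettl3 cKO (log2 fold change -1.33 ± 0.29 (SE), adjusted p = 0.0019), a call lost without the filter on low values (adjusted p = 0.58) or with the W4 libraries fitted alone (adjusted p = 0.064). The part of these markers in the collagen differences was not tested.

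At W2, when the type IV chains and Col18a1 were called, 24.6% of all genes were called higher and 4.49% lower. The marker lists were on both sides of those shares. Stellate and myofibroblast markers were called higher for 2 of 14 genes, with sums of 77.5 to 105 FPKM in Control and 100.2 to 141 in Mettl3 cKO, and portal fibroblast markers for 3 of 9 (31.9 to 75.2 against 64.2 to 85.3 FPKM). Macrophage markers were called higher for 1 of 7 (80.1 to 114 against 97.6 to 119 FPKM) and endothelial markers for 1 of 10 (102 to 107 against 115 to 120.1 FPKM). Cholangiocyte markers were called higher for 4 of 6 genes counted (50.3 to 55.2 against 76.5 to 99.9 FPKM), Krt19 among them (log2 fold change 1.08 ± 0.35 (SE), adjusted p = 0.035). Hepatocyte markers were called higher for 3 of 10 and lower for 0, with sums of 44891 to 44899 against 67456 to 81782 FPKM, in the libraries whose mitochondrial shares are given above. The call of Krt19 was lost with median-of-ratios scaling (0.91, adjusted p = 0.074) and without either Control (adjusted p = 0.14 and 0.091) or the replicate 1 Mettl3 cKO (adjusted p = 0.22).

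The 22 chains that did not pass the filter reached at most 1.18 FPKM, and 2 of them, Col12a1 and Col24a1, reached 1 FPKM in 1 library each. They comprised 3 fibrillar chains, 3 type IV chains and 16 other chains, and 8 of the 22 had a value above 0 in every library. When the filter was removed, 5 of them were called higher in Mettl3 cKO at W4 and 0 lower: Col8a1, Col12a1, Col22a1, Col23a1 and Col6a5. Their log2 fold changes ran from 0.28 to 0.56 with 1 FPKM added, which understates the change of genes this low. That fit covered 29641 genes, and the share of these called was not taken, so the count cannot be set against all genes. Col22a1, a chain of tissue junctions such as that of muscle and tendon, was at 0.00873 and 0 FPKM in Control against 0.340 and 0.327 FPKM in Mettl3 cKO at W4, about 1 and 0 reads against 47 and 32. Col8a1, a short network-forming chain of vessel walls, was at 0 and 0 FPKM in Control against 0.796 and 0.218 FPKM in Mettl3 cKO at W4, or 0 and 0 against about 94 and 18 reads. Both genes stood higher in the 2 W4 Mettl3 cKO libraries than in the other 14. These 5 were named after their values were seen.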

How the data were processed

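Whole-liver poly(A) RNA was sequenced by the study as paired reads, aligned with HISAT2 to mm10, and the deposited table gives FPKM per gene, computed by the authors. Counting tool and annotation were not given in the sources used here. The submitters' processing notes also name DESeq2. Since FPKM are not counts, log2(FPKM + 1) was tested with limma 3.58.1 in R 4.3.3 (8 group means, moderated variance with a trend, adjusted over 14913 genes). The main test was first run on simulated data. Members and gene lists were chosen with earlier results of these data known. Values in every library are given for chains called at any age or among the 10 highest by mean FPKM. Named from the other lists were up to 4 genes with the smallest adjusted p at W4, plus Serpinh1; from the marker lists Acta2, Pdgfrb, Krt19 and Alb. Depth was estimated from FPKM steps and GENCODE M21 exon lengths. Between 66.3% and 73.0% of low values (up to 10 reads) lay within 0.05 reads of a whole number. Over values of any size this share averaged 38.0%, and recovered reads summed to 119% to 135% of the estimated depth. Depth and recovered reads are therefore approximate. Libraries were also rescaled by median of ratios and by the total of nuclear genes, tested with 0.1 FPKM added, without the filter, with terms for replicate number or sex, with each library left out, each age alone and at the study's threshold. The comparisons of W4 with W2 and limma-voom on recovered reads were added after seeing the data. Replicates of a group correlated with Spearman's rho of 0.960 to 0.977 across genes. A gene of the basement membrane list is not reported here.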

Additional observations from a re-analysis of the deposited data

Results flagged for a closer look

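The genotype difference (log2 fold change of Mettl3 cKO over Control) differed between W4 and W2 for 18 chains by the interaction term in limma, at adjusted p-values from 0.00012 (Col16a1) to 0.023 (Col18a1). Among fibrillar chains the difference at W4 minus that at W2 was 2.66 for Col1a1, 2.37 for Col1a2, 2.67 for Col3a1, 1.61 for Col5a1, 2.28 for Col5a2 and 1.12 for Col11a2. It was negative for Col5a3 at -2.60 and Col27a1 at -1.61, both of which were called higher at W2 and lower at W4. For the type IV chains it was 1.86 for Col4a1, 1.82 for Col4a2 and 1.35 for Col4a5. Among other chains it was 1.65 for Col6a1, 1.32 for Col6a2, 1.83 for Col6a3, 1.32 for Col13a1, 1.72 for Col14a1, 2.01 for Col16a1 and -1.08 for Col18a1. With libraries scaled to the total of nuclear genes, the value for Col18a1 was -0.52 and was not called (adjusted p = 0.16), beside the mitochondrial shares of 58.1% and 59.0% in W2 Control. The call of Col18a1 was also lost without the replicate 2 W2 Control, replicate 1 W2 Mettl3 cKO, replicate 2 W4 Control or replicate 2 W4 Mettl3 cKO (adjusted p from 0.052 to 0.096). That of Col6a2 was lost without the replicate 1 W2 Control, replicate 2 W2 Mettl3 cKO or replicate 1 W4 Mettl3 cKO (adjusted p from 0.053 to 0.072). Col15a1 was not called (log2 fold change 0.76 ± 0.30 (SE), adjusted p = 0.07), but was called with the replicate number as a block (adjusted p = 0.040), with scaling to the total of nuclear genes (1.03, adjusted p = 0.017) and without the replicate 2 W4 Mettl3 cKO (1.06, adjusted p = 0.019).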

How the results depend on the processing

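At W4, 16 of the 18 calls held under every alternative run, the exceptions being Col15a1 and Col27a1, and the count ran from 16 to 18 with a library left out. At W2, Col4a1, Col4a2 and Col18a1 held under every alternative, and Col4a5 under all but the study's threshold (unadjusted p under 0.05 and an absolute log2 fold change over 1), while the count of 7 chains became 3 at that threshold and ran from 4 to 7 with a library left out, with 4 without the replicate 2 Control or the replicate 1 Mettl3 cKO. At P1 the count of 0 became 1 with scaling to the total of nuclear genes, at the study's threshold and with limma-voom on recovered reads. In all 3 the chain was Col27a1 (adjusted p = 0.042 with nuclear scaling and 0.035 with limma-voom). A term for sex lowered the mean over ages from 15 to 8 calls and W4 minus P1 in Mettl3 cKO from 18 to 11. That term rests on the 2 P1 Control libraries, the only group with both sexes. It leaves the genotype estimates at W2 and W4 unchanged, since all those livers were male, and so does not check them. W4 minus W2 in Mettl3 cKO had 8 calls in place of 13 with median-of-ratios scaling, and 7 to 13 with a library left out, the 7 without the replicate 1 W4 Mettl3 cKO. The cause of these changes was not tested. Signs turned with median-of-ratios scaling for Col18a1 at W4 (-0.30) and, from W2 to W4 in Mettl3 cKO, for Col1a1 (-0.26), Col1a2 (-0.19) and Col3a1 (-0.23), none of them called. With a library left out these ran from -0.012 to 0.51, -0.00285 to 0.652 and -0.077 to 0.67. Over the libraries left out, the ratio differences ran from 0.30 to 0.51 for Col1a1 to Col1a2, -0.61 to -0.40 for Col3a1 to Col1a1, 0.17 to 0.26 for Col4a1 to Col4a2, -0.48 to -0.31 for Col5a1 to Col5a2, -0.42 to -0.30 for Col6a1 to Col6a2 and -0.066 to 0.28 for Col4a1 to Col1a1. Counting the multiplexins with the basement membrane chains made 4 of 5 of these called at W4 in place of 3 of 3 (all genes 46.9% higher and 12.4% lower). Replicate numbers did not pair the libraries (correlations of deviations 0.015, 0.13, 0.019 and 0.086 at P1, W1, W2 and W4). With the replicate number as a block the counts were 7 at W2 and 18 at W4, 12 in place of 13 for W4 minus W2 in Mettl3 cKO (Col5a3 lost), and 19 in place of 18 for the W4 minus W2 difference (Col15a1 gained). With 2 libraries a group, small differences between chains were not detectable.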
